A study of Mus musculus with 6 samples.

Results

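Aminoacyl-tRNA synthetases join each amino acid to its transfer RNA. The genes described here are the protein-coding genes that the deposited table annotates with the KEGG pathway Aminoacyl-tRNA biosynthesis, which gave 43 of its 53800 genes. They comprise 21 genes for synthetases of the cytosol, 17 for synthetases of the mitochondrion and 5 for other enzymes that complete a charged tRNA. RNA sequencing with an mRNA library kit measured them in NCTC 1469, a mouse liver cell line whose samples are labelled hepatocytes with the genotype WT. The 3 simulated microgravity libraries came from cells kept for 6 days in a random positioning machine, a device that rotates cultures so that the pull of gravity averages out over time, and the 3 normal gravity libraries came from cells kept for 6 days without it. Both groups shared the line, the medium and the library kit. The series title names melatonin, and no library here carries a label of that treatment. Count columns carry the letters R and C, and every direction below assumes that R stands for random positioning and C for control, which the labels do not state. The labels also do not say whether replicates were separate cultures, so p-values measure the spread between these libraries, which may be technical.

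Each synthetase activates its amino acid with ATP and passes it to the tRNA, and the enzymes fall into class I and class II by the fold of the catalytic domain. Cytosolic synthetases serve the ribosomes of the cytosol. Several of them sit in the multisynthetase complex, which the scaffold proteins AIMP1, AIMP2 and EEF1E1 help to hold together. Mitochondrial synthetases are encoded in the nucleus and imported, and charge the tRNAs for the proteins made inside the organelle. When charged tRNA runs short the kinase GCN2 phosphorylates eIF2 alpha, and the transcription factor ATF4 then raises many cytosolic synthetase genes together with genes of amino acid supply.

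Library totals were 30474792 to 34318208 counts in simulated microgravity and 31406875 to 32797684 counts at normal gravity. Normal gravity replicate 1 stood apart. Over the log2 CPM (counts scaled to a common library size) of all tested genes it correlated at 0.936 with each of the other normal gravity libraries. These correlated at 0.985 with each other. The deviation of replicate 1 from their mean fell with gene length (Spearman rho across genes -0.50). For normal gravity replicates 2 and 3 the mean of the others includes replicate 1, and their deviations rose with length (0.43 and 0.44). In simulated microgravity the values, taken the same way, were 0.15, -0.01 and -0.13. Results are therefore given with all 6 libraries and without that library. Leaving it out was a choice made from these data, and it leaves 3 against 2 libraries. The choice narrows the spread within normal gravity on which the p-values without that library rest, so they are given as a description. Of 10 hepatocyte markers, 7 had 0 counts in every library, among them Alb, Apob and Hnf4a, and none exceeded 0.178 CPM. All 10 macrophage markers had at least 153 CPM in every library, so the markers go against the hepatocyte label and the cells are called by the name of the line. Summed macrophage markers were at 10952.6, 10182.2 and 11503.3 CPM in simulated microgravity, against 10854.5, 6829.3 and 6845.8 CPM at normal gravity. Of these, Lyz2 alone was at 3937.8, 3540.3 and 4669.5 CPM in simulated microgravity and 3989.5, 943.3 and 992.8 CPM at normal gravity. With all libraries 0 of the 10 macrophage markers were called higher or lower in edgeR. Fibroblast and stellate markers summed to 11.6 to 14.1 CPM in simulated microgravity and 8.63 to 13.5 CPM at normal gravity, and endothelial markers to 45.5 to 58.3 CPM in simulated microgravity and 19.4 to 20 CPM at normal gravity. Most of the endothelial sum was Vwf, at 52.8, 42.4 and 57 CPM in simulated microgravity and 15.3, 17.5 and 16.7 CPM at normal gravity, while Stab2 was at 0 and Pecam1, Cdh5 and Kdr were each at or below 4.05 CPM. Vwf and Pdgfrb, of the fibroblast and stellate markers, were higher with all libraries (edgeR adjusted p 0.00886 and 0.0396), as were 1.16% of tested genes. In these 2 marker lists 0 genes were called lower. Cholangiocyte markers summed to at most 0.361 CPM in simulated microgravity and at most 0.457 CPM at normal gravity. The part of these differences in the results below was not tested.

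Levels of different genes were compared as CPM per kilobase, scaled by the trimmed mean of M values (TMM) and divided by the length that the table lists for each gene. That length equalled the union of all exons in the GENCODE M21 annotation for 2 of the 43 genes. For Eprs it was 5638 against 18102 bases, and for Mars2 it was 11294 bases in both. Rankings of genes and ratios between genes depend on the length used. Cytosolic synthetase genes had a median level of 49.2 CPM per kilobase over the 6 libraries, in a range of 10.3 to 82.1. The highest was Nars, for asparagine, with 85.3 CPM per kilobase in simulated microgravity and 79 at normal gravity. Sars, for serine, had 77.6 CPM per kilobase in simulated microgravity and 83.2 at normal gravity. Eprs, whose product charges the tRNAs of glutamate and proline from a single chain, had 62.8 CPM per kilobase in simulated microgravity and 66.3 at normal gravity. These high genes contrast with Wars, for tryptophan, at 11.7 CPM per kilobase in simulated microgravity and 8.97 at normal gravity, and Tarsl2, a further threonine enzyme gene of the cytosol, at 12 in simulated microgravity and 11.4 at normal gravity.

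Mitochondrial synthetase genes had a lower median level of 6.12 CPM per kilobase. The highest were Iars2, for isoleucine, with 23.5 CPM per kilobase over the 6 libraries, Tars2, for threonine, with 16.6, and Rars2, for arginine, with 13.5. At the low end were Ears2, for glutamate, with 1.66 and Pars2, for proline, with 2.1 CPM per kilobase. The 5 other enzymes lay in the mitochondrial range, from 5.67 CPM per kilobase for Mtfmt, which formylates the methionyl-tRNA that starts mitochondrial proteins, to 14 for Gatc, a subunit of the amidotransferase that makes mitochondrial glutaminyl-tRNA.

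**Figure D1:**
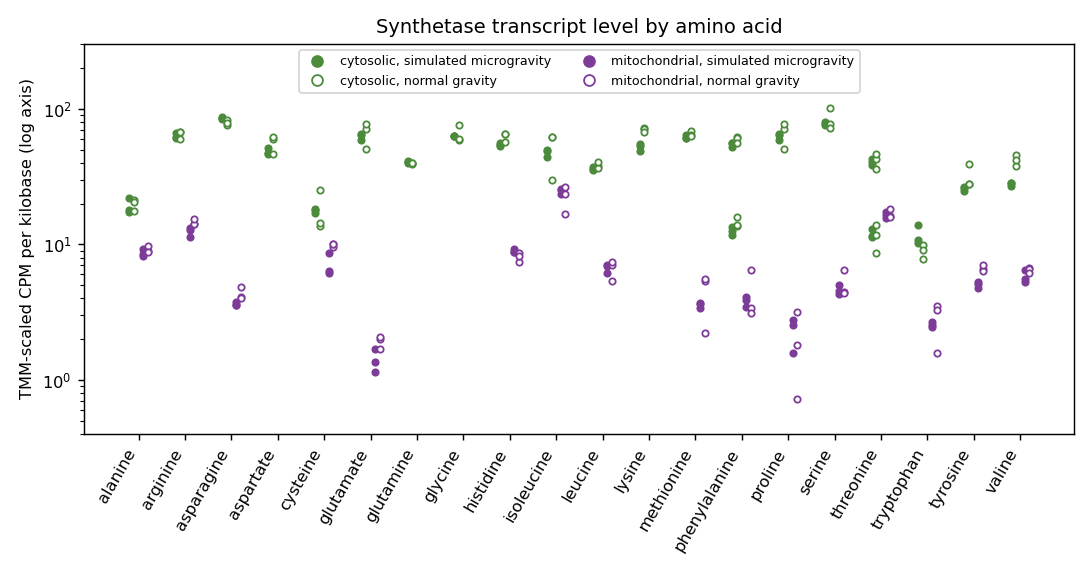
Level in TMM-scaled CPM per kilobase (log axis) of cytosolic (green) and mitochondrial (purple) synthetase genes by amino acid, all but 1 of them, 1 point per library, with simulated microgravity filled and normal gravity open. Cytosolic genes have a median of 49.2 and mitochondrial genes a median of 6.12 CPM per kilobase over the 6 libraries.

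For all 17 amino acids with a gene of each kind, the cytosolic level per kilobase, summed where there were several genes, exceeded the mitochondrial level in every library. The mean ratio ran from 1.91 for isoleucine to 45.9 for glutamate in simulated microgravity (median 5.1), and from 1.8 for cysteine to 54.1 for proline at normal gravity (median 5.88). The proline mean at normal gravity rests on replicate 3, since the ratios were 15.9, 38.8 and 108, and it was 27.3 without that library, below the 34.1 of glutamate. For asparagine the ratio of Nars to Nars2 was 24.2, 23.1 and 23 in simulated microgravity, against 20.1, 15.8 and 19.4 at normal gravity. For valine the ratio of Vars to Vars2 was 5.36, 4.42 and 4.86 in simulated microgravity, against 5.6, 6.87 and 6.74 at normal gravity. The groups did not overlap for either amino acid, with the asparagine ratio higher and the valine ratio lower in simulated microgravity. The groups were also apart for glutamate (higher) and histidine (lower), and the ratios overlapped for 12 of the 17 amino acids. Taken singly, 27.3% of all tested genes did not overlap between groups, and no such share was computed for ratios of other genes. Glutamine, glycine and lysine have no separate mitochondrial synthetase gene in the list, and Gars and Kars are known to give both the cytosolic and the mitochondrial enzyme.

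With all 6 libraries, none of the 43 genes passed the edgeR quasi-likelihood test at a Benjamini-Hochberg adjusted p under 0.05, against 1.52% of the 14509 genes tested (1.16% higher and 0.365% lower). All 43 had passed the filter on low counts, with 71 to 14131 counts in a library. At an unadjusted p under 0.05, 6 were lower (Vars, Kars, Yars2, Cars2, Gatb and Ears2) and 0 higher, where 7.48% of tested genes were lower and 8.55% higher. DESeq2 called 3 lower (Vars, Kars and Yars2, where it called 8.48% of tested genes, 3.56% lower and 4.92% higher), and limma-voom called 0 (1.62% of tested genes, 1.28% higher and 0.338% lower). The estimated log2 fold change was below 0 for 33 genes and above 0 for 10, with a median of -0.08 against -0.02 over all tested genes. In bulk RNA, fewer cells of a type and less RNA per cell cannot be told apart. The groups did not overlap for 14 of the 43 genes (32.6%), 11 lower and 3 higher, where 27.3% of tested genes did not overlap (12.9% lower and 14.4% higher).

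**Figure D2:**
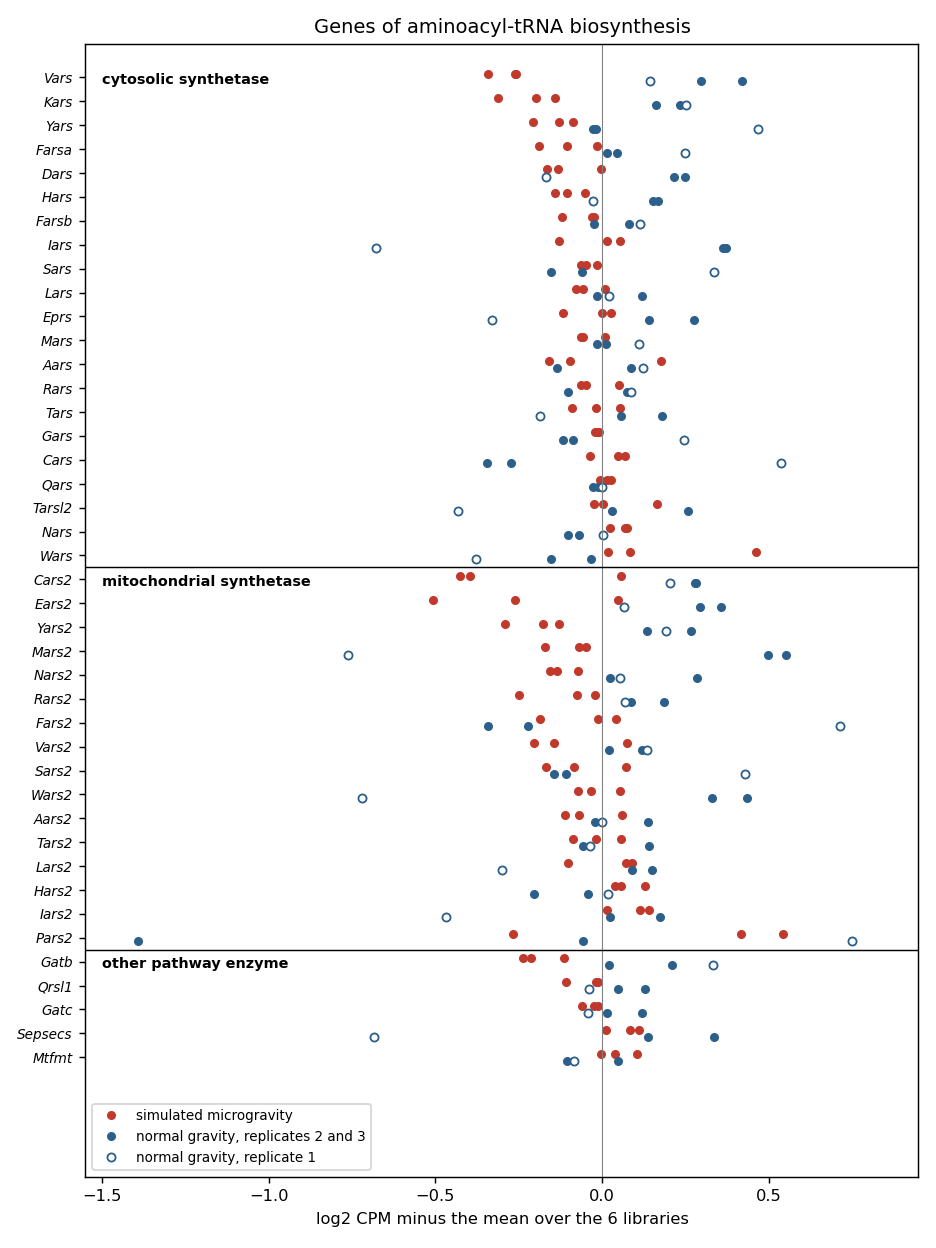
Log2 of TMM-scaled CPM of all but 1 of the 43 genes in the 6 libraries minus the gene's mean over them, 1 point per library, with simulated microgravity in red above normal gravity in blue and normal gravity replicate 1 as an open circle. Normal gravity replicate 1 often departs from the other normal gravity libraries, above both in 18 of the 43 genes and below both in 19.

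Vars, the valine synthetase gene of the cytosol (GRCm38 chr17:35000987-35016322, plus strand), had the lowest p. Its level was 117.5, 117.2 and 110.8 CPM in simulated microgravity, against 155.2, 188.1 and 172.7 CPM at normal gravity. All simulated microgravity libraries lay below all normal gravity libraries. The means were 115.2 ± 3.79 CPM in simulated microgravity and 172.0 ± 16.5 CPM at normal gravity (SD, n = 3 each), a log2 fold change of -0.58 (SE 0.11) with an edgeR adjusted p of 0.0695. DESeq2 gave it an adjusted p of 0.000655.

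Kars, the lysine synthetase gene (chr8:111993443-112011323, minus strand), came next. It had 127.5, 132.5 and 117.7 CPM in simulated microgravity, against 174.1, 172.1 and 163.6 CPM at normal gravity. The groups were again apart, and normal gravity replicate 1 lay with the rest of its group. The log2 fold change was -0.43 (SE 0.10, edgeR adjusted p 0.102, DESeq2 adjusted p 0.00117). The table also holds 13 processed pseudogenes resembling Kars, which had 0 counts in all libraries.

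Wars, the gene of the tryptophan enzyme known to be induced by interferon, had the largest estimate above 0 among cytosolic genes. It stood at 31, 29.6 and 40.3 CPM in simulated microgravity, against 22.5, 28.6 and 26.3 CPM at normal gravity. The groups did not overlap, though the nearest libraries were close, and the log2 fold change of 0.38 (SE 0.17) had an edgeR adjusted p of 0.34. Wars overlaps Wdr25 on the opposite strand by 544 bases, and whether counting used strand is not given in the sources used here.

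**Figure D3:**
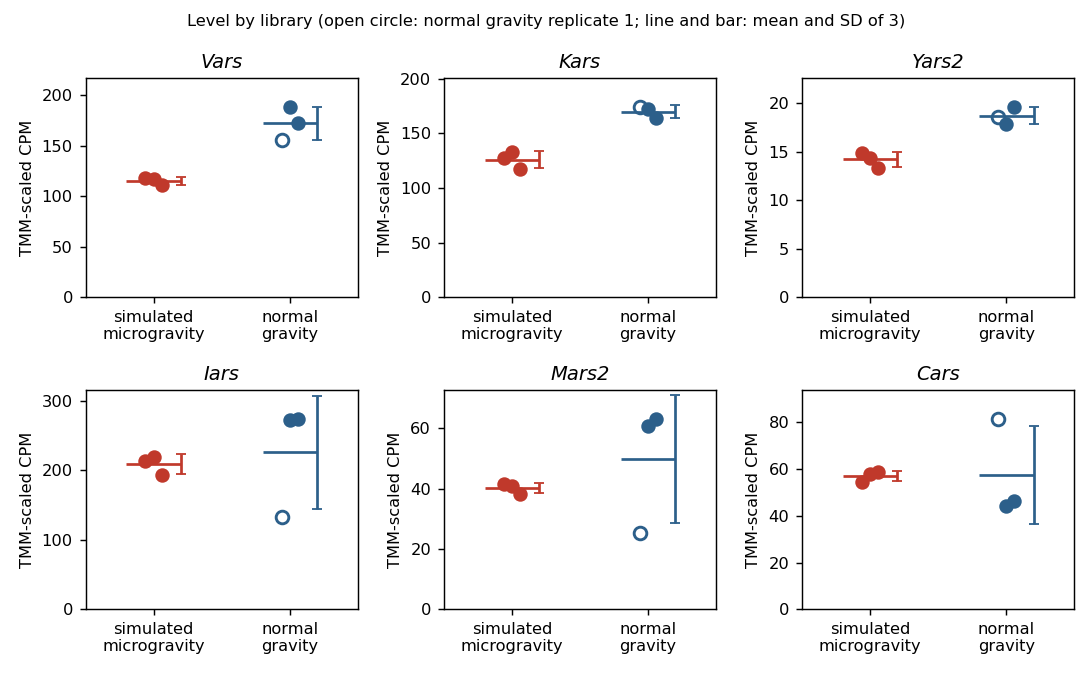
TMM-scaled CPM of Vars, Kars, Yars2, Iars, Mars2 and Cars in each library, with simulated microgravity left of normal gravity, lines and bars for the mean and SD of 3 libraries, and normal gravity replicate 1 as an open circle. Vars, Kars and Yars2 have all simulated microgravity libraries below all normal gravity libraries, while Iars and Mars2 have normal gravity replicate 1 on the far side of the simulated microgravity libraries.

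Without normal gravity replicate 1, 11 of the 43 genes passed in edgeR (25.6%), 9 lower and 2 higher, where 30.8% of 14809 tested genes passed (15.1% lower and 15.7% higher). The share among the synthetase genes was thus near that of all genes. The median log2 fold change was -0.10 against 0.01 over all tested genes, and 28 of the 43 genes (65.1%) did not overlap between groups, against 58.6% of tested genes (29.3% in each direction). By group, 6 of 21 cytosolic genes fell and 2 rose, 3 of 17 mitochondrial genes fell and 0 rose, and none of the 5 other enzymes passed. Class I genes gave 5 lower and 1 higher of 18, and class II genes 3 lower and 1 higher of 19, Eprs with its enzymes of both classes standing outside this count.

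**Figure D4:**
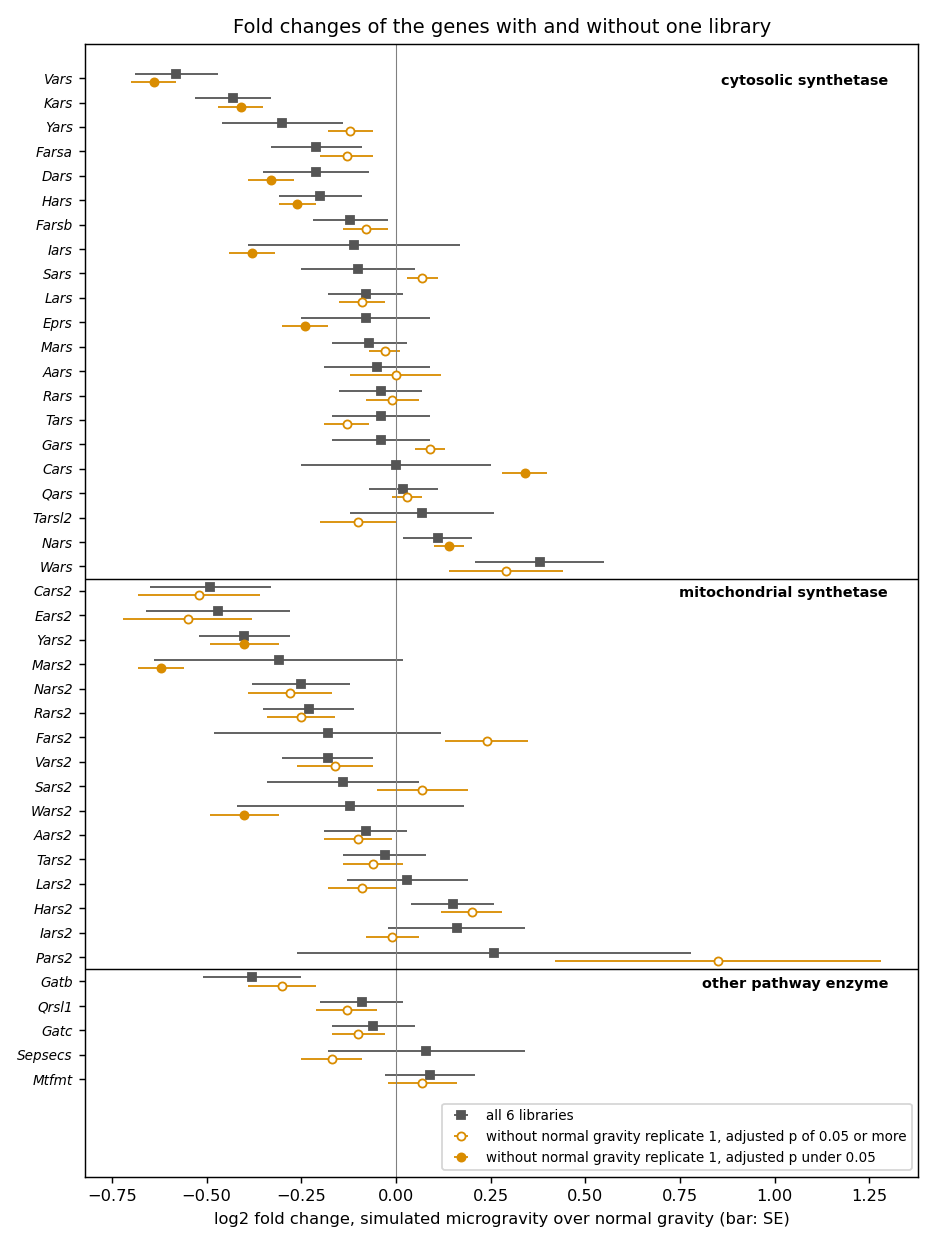
Log2 fold change, simulated microgravity over normal gravity, of all but 1 of the 43 genes with all 6 libraries (squares) and without normal gravity replicate 1 (circles, filled where the adjusted p was under 0.05), with bars for the SE. Over all 43 genes the median is -0.08 with all libraries and -0.10 without that library, and 10 genes have opposite signs in the 2 fits.

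In the multisynthetase complex, 4 of 8 genes fell without normal gravity replicate 1 (Kars, Iars, Dars and Eprs) and none rose, where 15.1% of tested genes were lower and 15.7% higher. With the trend with gene length also removed, 3 of 8 were lower. Kars fell by 0.41 on the log2 scale (SE 0.06, edgeR adjusted p 0.00594). Iars, for isoleucine (chr13:49682100-49734267, plus strand), had 214.1, 220.0 and 193.7 CPM in simulated microgravity, against 132.5, 272.5 and 274.1 CPM at normal gravity. Its simulated microgravity libraries lay between normal gravity replicate 1 and the others. Accordingly the log2 fold change was -0.11 (SE 0.28, edgeR adjusted p 0.897) with all libraries and -0.38 (SE 0.06, edgeR adjusted p 0.00683) without replicate 1.

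Dars, for aspartate, had 102.9, 112.4 and 100.6 CPM in simulated microgravity, against 100.3, 131.0 and 133.8 CPM at normal gravity. Eprs had 361.2, 367.7 and 333.0 CPM in simulated microgravity, against 286.8, 398.1 and 437.1 CPM at normal gravity. In both, replicate 1 was the lowest normal gravity library and lay below all simulated microgravity libraries, while the others lay above them. Without it the log2 fold changes were -0.33 for Dars (SE 0.06, edgeR adjusted p 0.0115) and -0.24 for Eprs (SE 0.06, edgeR adjusted p 0.0345). Eprs no longer passed once the trend with gene length was also removed (-0.18, edgeR adjusted p 0.0566).

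The remaining complex genes, Lars, Mars, Qars and Rars for leucine, methionine, glutamine and arginine, did not pass in either comparison. Qars was the most even of them, with 124.2, 125.3 and 122.3 CPM in simulated microgravity and 122.8, 120.7 and 122.0 CPM at normal gravity. Mars ends in a 68-base overlap with Ddit3 on the opposite strand. The 3 scaffold genes, which are not annotated to the pathway, all lay lower in simulated microgravity without overlap (12.9% of tested genes), and all 3 fell without replicate 1 (15.1% of tested genes). Aimp1 had 40.6, 43.2 and 44.9 CPM in simulated microgravity, against 69.5, 54.1 and 50.5 CPM at normal gravity. Aimp2 had 28.3, 32.3 and 28.6 CPM in simulated microgravity, against 46.7, 39.9 and 39.3 CPM at normal gravity. Eef1e1 had 51, 52.2 and 47.6 CPM in simulated microgravity, against 57.5, 65.8 and 76.1 CPM at normal gravity. Without replicate 1 the log2 fold changes were -0.28 for Aimp1 (edgeR adjusted p 0.0267, against 0.233 with all libraries), -0.41 for Aimp2 (0.0136 against 0.122) and -0.49 for Eef1e1 (0.00742 against 0.225).

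Among the 13 cytosolic genes outside the complex, Vars and Hars fell and Cars and Nars rose without normal gravity replicate 1. That is 30.8% of them, the same share as over all tested genes (15.1% lower and 15.7% higher). Vars fell by 0.64 on the log2 scale (SE 0.06, edgeR adjusted p 0.00105). Hars, for histidine, had 105.2, 111.8 and 107.9 CPM in simulated microgravity, against 113.7, 130.3 and 129.0 CPM at normal gravity. Its groups did not overlap with or without replicate 1, and the log2 fold change without it was -0.26 (SE 0.05, edgeR adjusted p 0.0112). Hars and Hars2 lie head to head on opposite strands and share 198 bases.

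Cars, for cysteine (chr7:143557230-143600090, minus strand), had 54.6, 57.9 and 58.7 CPM in simulated microgravity, against 81.3, 44.1 and 46.3 CPM at normal gravity. Replicate 1 was above all simulated microgravity libraries and the other normal gravity libraries were below them. The log2 fold change was -0.00 (SE 0.25, edgeR adjusted p 0.996) with all libraries and 0.34 (SE 0.06, edgeR adjusted p 0.00981) without replicate 1. Nars had 226.4, 219.4 and 227.5 CPM in simulated microgravity, against 216.6, 201.2 and 205.8 CPM at normal gravity. Its groups did not overlap, with a small log2 fold change of 0.14 (SE 0.04, edgeR adjusted p 0.0388) without replicate 1, and it no longer passed once the trend with gene length was also removed (0.05, edgeR adjusted p 0.353).

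The other cytosolic genes did not pass in either comparison. Sars had 275.7, 272.9 and 282.5 CPM in simulated microgravity, against 360.4, 273.8 and 256.6 CPM at normal gravity. Replicate 1 was the highest library and the rest overlapped. Aars, for alanine, overlaps Exosc6 on the same strand by 1326 bases, and the counts assigned to Exosc6 were 612, 1 and 2 in simulated microgravity and 1085, 726 and 11 at normal gravity.

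Of the 17 mitochondrial synthetase genes, Yars2, Mars2 and Wars2 fell and 0 rose without normal gravity replicate 1. That is 17.6% of them, against 30.8% of all tested genes (15.1% lower and 15.7% higher). Yars2, for tyrosine (chr16:16302965-16309640, plus strand), had 14.9, 14.4 and 13.3 CPM in simulated microgravity, against 18.6, 17.9 and 19.6 CPM at normal gravity. The groups were apart in all libraries. Its log2 fold change was -0.40 in both comparisons, with an edgeR adjusted p of 0.178 with all libraries and 0.0246 without replicate 1, and a DESeq2 adjusted p of 0.0373 with all libraries.

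Mars2, for methionine (chr1:55237177-55248470, plus strand), had 41.5, 40.9 and 38.1 CPM in simulated microgravity, against 25.3, 60.7 and 63 CPM at normal gravity. Wars2, for tryptophan, had 11.9, 10.9 and 11.2 CPM in simulated microgravity, against 6.96, 15.5 and 14.4 CPM at normal gravity. In both genes replicate 1 was the lowest of all 6 libraries and the other normal gravity libraries were the highest. Without it the log2 fold changes were -0.62 for Mars2 (SE 0.06, edgeR adjusted p 0.00155) and -0.40 for Wars2 (SE 0.09, edgeR adjusted p 0.0231).

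Cars2 and Ears2, for cysteine and glutamate, lay lower in simulated microgravity in all libraries without passing with all libraries or without replicate 1. Cars2 had 19.8, 27.1 and 19.4 CPM in simulated microgravity, against 30, 31.6 and 31.7 CPM at normal gravity, with a log2 fold change of -0.49 (SE 0.16, edgeR adjusted p 0.207) that had an adjusted p of 0.0525 without replicate 1. Cars2 did pass once the trend with gene length was also removed (-0.58, edgeR adjusted p 0.037). Ears2 had 6.65, 8.23 and 5.6 CPM in simulated microgravity, against 8.34, 9.76 and 10.2 CPM at normal gravity, with a log2 fold change of -0.47 (SE 0.19, edgeR adjusted p 0.311). Cars2 shares 984 bases with Naxd, and Ears2 89 bases with Ubfd1, on the opposite strand.

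Pars2 varied most. It had 7.71, 8.42 and 4.8 CPM in simulated microgravity, against 9.72, 5.55 and 2.2 CPM at normal gravity. Its groups overlapped, and its log2 fold change was 0.26 (SE 0.52) with all libraries. Iars2, the mitochondrial gene of the highest level, had 140.4, 137.8 and 128.9 CPM in simulated microgravity, against 92.2, 143.8 and 129.5 CPM at normal gravity, with replicate 1 alone standing lower. It shares 2034 bases with Rab3gap2 on the opposite strand.

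In the amidotransferase that makes mitochondrial glutaminyl-tRNA, the subunit gene Gatb had 17, 16.7 and 18.2 CPM in simulated microgravity, against 24.8, 20 and 22.8 CPM at normal gravity. All simulated microgravity libraries were below all normal gravity libraries, with a log2 fold change of -0.38 (SE 0.13, edgeR adjusted p 0.227) and, without replicate 1, -0.30 (SE 0.09, edgeR adjusted p 0.0542). Gatb did pass once the trend with gene length was also removed (-0.35, edgeR adjusted p 0.0328). The other subunits, Qrsl1 and Gatc, overlapped between groups, at log2 fold changes of -0.09 (SE 0.11) and -0.06 (SE 0.11). Sepsecs, whose product completes selenocysteinyl-tRNA, had 34.9, 35.6 and 33.2 CPM in simulated microgravity, against 20.5, 41.6 and 36.2 CPM at normal gravity. Its replicate 1 at normal gravity was the lowest library and the others at normal gravity were the highest.

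The deviation of normal gravity replicate 1 from the mean of the other normal gravity libraries ran from -1.29 on the log2 scale for Mars2, whose listed length of 11294 bases is the longest of the 43, to 1.33 for Pars2. Across the 43 genes it fell with gene length (Spearman rho -0.40, a description over genes that share the same libraries). The log2 fold change of the 43 genes had a rho with length of -0.00 with all libraries and -0.26 without replicate 1. Leaving that library out thus went with a relation to length that the fit with all libraries lacked. Removing each library's trend with length, with replicate 1 kept, gave 2 genes lower in edgeR, Vars (adjusted p 0.00991) and Kars (adjusted p 0.0402), where 4.98% of tested genes passed (2.37% lower and 2.61% higher). Leaving out replicate 1 and removing the trend together, an alternative chosen after seeing the data, gave 13 lower and 1 higher against 31.1% of tested genes (17.2% lower and 14% higher), and 9 of these 14 genes were among the 11 called without replicate 1 alone. The others were Cars2, Gatb, Rars2, Yars and Farsb, all lower, while Eprs and Nars lost their calls.

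**Figure D5:**
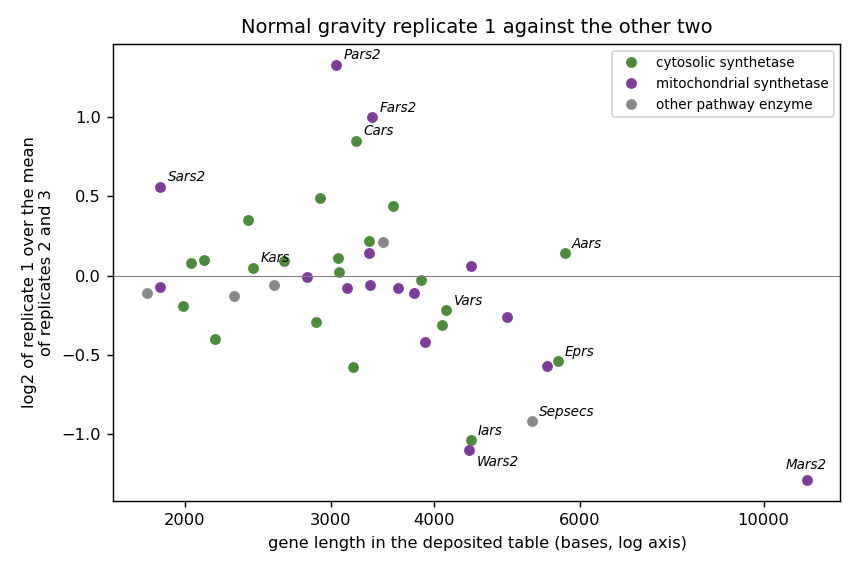
Deviation of normal gravity replicate 1 from the mean of the other normal gravity libraries (log2) against the listed gene length (bases, log axis) for all but 1 of the 43 genes, coloured by group. The deviation runs from -1.29 for Mars2 to 1.33 for Pars2, with Spearman rho -0.40 over all 43.

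Genes that act before and after the synthetases were described from lists. None of the genes in these lists or of the scaffold passed in edgeR or limma-voom with all libraries. At an unadjusted p under 0.05 in edgeR, all 3 scaffold genes were lower, genes of tRNA maturation gave 1 higher and 3 lower, elongation factors 4 lower and the eIF2 alpha kinases 0. Over all tested genes 7.48% were lower and 8.55% higher at that threshold. DESeq2 called 1 scaffold gene and 1 tRNA maturation gene lower, where it called 3.56% of tested genes lower and 4.92% higher. Without normal gravity replicate 1, the 14 tested genes of tRNA maturation, export and proofreading gave 3 higher and 4 lower, where 15.7% of tested genes were higher and 15.1% lower. Elac1 and Prorsd1 rose by 0.37 and 0.45 on the log2 scale (edgeR adjusted p 0.0105 and 0.0176). In both genes replicate 1 lay above all simulated microgravity libraries. With all libraries their log2 fold changes were 0.05 and 0.21 (edgeR adjusted p 0.949 and 0.689). Aarsd1, which clears wrongly charged alanine tRNA, fell by 0.40 on the log2 scale. Elac2, Dtd1 and Thg1l also fell, by 0.17, 0.36 and 0.49, with replicate 1 of Elac2 below all simulated microgravity libraries.

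Of 10 genes for elongation factors, which carry charged tRNA to the ribosome or move it along, 5 fell and 0 rose without replicate 1 (15.1% and 15.7% of tested genes), with a median log2 fold change of -0.19 against 0.01 over all tested genes. They were Gfm1, of mitochondria, at -0.41 (SE 0.06, edgeR adjusted p 0.00435), Eef1g at -0.28 (SE 0.04, edgeR adjusted p 0.00493), Tsfm, also of mitochondria, at -0.30, Eef1d at -0.24 and Eef2 at -0.15. With all libraries the median was -0.24. In Gfm1 replicate 1 lay below all simulated microgravity libraries, and its log2 fold change with all libraries was -0.19 (edgeR adjusted p 0.749). Eef1g, Tsfm, Eef1d and Eef2 had all simulated microgravity libraries below all normal gravity libraries, as 12.9% of tested genes did.

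The list of the integrated stress response and ATF4 targets, with synthetases left out, had 30 genes, of which 25 were tested. With all libraries 0 passed in edgeR, with an unadjusted p under 0.05 for 4 that lay higher and 4 that lay lower (8.55% and 7.48% of tested genes). DESeq2 called 1 higher and 3 lower (4.92% and 3.56% of tested genes), and the median log2 fold change was -0.01. Without normal gravity replicate 1, 13 rose and 4 fell, where 15.7% of tested genes were higher and 15.1% lower, and the median was 0.29 against 0.01 over all tested genes. Replicate 1 lay above both other normal gravity libraries in 21 of the 25. The genes of the list that rose included the transcription factor genes Cebpb (1.59, edgeR adjusted p 0.000107) and Atf3 (0.98, edgeR adjusted p 0.0004), and Slc3a2, a subunit of amino acid transporters (0.50, edgeR adjusted p 0.000991). Those that fell were Slc7a5, the transporter partner of Slc3a2 (-0.63, edgeR adjusted p 0.0032), Shmt2, of serine and glycine metabolism (-0.48, 0.00246), Slc7a1, a carrier of cationic amino acids (-0.32, 0.00696), and Aldh18a1, of proline synthesis (-0.28, 0.0202). Replicate 1 lay above all simulated microgravity libraries in Cebpb, below all of them in Slc7a1 and among them in Slc3a2. With all libraries the log2 fold changes were 0.67 for Cebpb, -0.08 for Slc7a1 and 0.30 for Slc3a2 (edgeR adjusted p 0.609, 0.918 and 0.455). The groups of Atf3, Slc7a5, Shmt2 and Aldh18a1 did not overlap with all libraries (27.3% of tested genes).

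Trib3, an ATF4 target, had 39.9, 43.5 and 46 CPM in simulated microgravity, against 86.3, 23.3 and 20.8 CPM at normal gravity. Ddit3, which encodes CHOP, had 21.4, 21.6 and 21.7 CPM in simulated microgravity, against 48.4, 16.3 and 15.4 CPM at normal gravity. Asns, for asparagine synthetase, had 125.4, 126.1 and 114.2 CPM in simulated microgravity, against 190.8, 105.9 and 93.9 CPM at normal gravity. In all 3 genes replicate 1 was the highest library and the other normal gravity libraries were the lowest, the pattern seen in Cars. Without replicate 1 the log2 fold changes were 0.97 for Trib3 (edgeR adjusted p 0.00132), 0.45 for Ddit3 (0.00862) and 0.29 for Asns (0.0342). Asns no longer passed once the trend with gene length was also removed (0.17, edgeR adjusted p 0.159). Atf4 itself had 254, 446.6 and 442.5 CPM in simulated microgravity, against 738.8, 404.7 and 217.4 CPM at normal gravity, and its groups overlapped with or without replicate 1 (edgeR adjusted p 0.848 and 0.554). Of the 4 kinase genes for eIF2 alpha, 0 passed with all libraries and 1, Eif2ak2, fell without replicate 1 (-0.32, edgeR adjusted p 0.0179), where 15.1% of tested genes were lower. In Eif2ak2 replicate 1 lay below all simulated microgravity libraries, and its log2 fold change with all libraries was -0.04 (edgeR adjusted p 0.974).

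The C/EBP-ATF response element, through which ATF4 acts, has the core TGATGNAA, where N is any base. This single motif was searched on both strands of RefSeq promoter windows (GRCm38.p6, 250 bases before to 50 after each start), which were matched by gene ID, symbol or synonym at the gene's own position for 31 of the 43 genes. It was present in 5 of the 31, against 4.51% of the 27025 genes with a window. All 5 were among the 14 cytosolic genes with a window, and 0 of 14 mitochondrial genes and 0 of 3 other enzymes held it. A match of each of these genes is shown because ATF4 is known to act on cytosolic synthetase genes, with Asns as a target for comparison, each read along the gene's own strand with the match in capitals.
Aars, chr8:111033841-111033868, plus strand: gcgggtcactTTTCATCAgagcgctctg
Gars, chr6:55037961-55037988, plus strand: ggctgcgctaTTTCATCAtgcaccgggc
Iars, chr13:49682127-49682154, plus strand: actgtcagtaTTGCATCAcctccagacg
Tars, chr15:11399656-11399683, minus strand: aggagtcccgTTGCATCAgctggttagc
Yars, chr4:129189896-129189923, plus strand: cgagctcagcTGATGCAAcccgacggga
Asns, chr6:7693215-7693242, minus strand: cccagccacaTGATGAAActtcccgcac

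Of the synthetase matches shown, the one in Yars reads as the motif and the others as its reverse complement, and those of Iars, Yars and Aars lie just after the start. A match is a description of letters and not a site. The 5 genes with a match had a median log2 fold change of -0.05 with all libraries, against -0.10 for the 9 cytosolic genes with a window and no match. Without normal gravity replicate 1 the medians were -0.12 and -0.10, and 1 gene with a match (Iars) and 3 without (Kars, Dars and Eprs) fell, where 15.1% of tested genes were lower. No window was found, among others, for Hars, Hars2, Vars, Cars, Rars, Wars, Lars, Nars, Gatb, Sepsecs and Pars2.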

How the data were processed

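The deposited table gives whole-number read counts per gene for 6 libraries, which the authors made from reads handled with fastp 2.0 and HISAT2 2.1.0, per the submitters' processing notes; the counter, its strand setting, the build and the annotation are not given in the sources used here. Of the genes shared with GENCODE M21, 97.1% had the same start and end, so coordinates are GRCm38 as the table lists them. Library sizes came from 53800 genes, and 1 line without a gene was left out. Genes were filtered with filterByExpr, scaled by TMM and tested with edgeR 4.0.16 (quasi-likelihood, two-sided, Benjamini-Hochberg over all tested genes, threshold 0.05) in R 4.3.3. The standard error of a log2 fold change is its size divided by the square root of F. DESeq2 1.42.0, limma-voom (limma 3.58.1), other scalings, no filter, a gene length trend removed by loess, a replicate block and each library left out were alternatives. The fit was also run on simulated counts with known fold changes. Those counts held no library that stood apart and no trend with gene length, so that run cannot tell how either affects the calls. For Itgam, which has several rows, the row with more counts was used, and Prorp was not analysed here. The members and lists were chosen with earlier results of these data known. Genes named are those past the threshold with all libraries or without normal gravity replicate 1, the 8 with the lowest p, the highest and lowest levels per kilobase, and up to 4 called genes per list with Aimp1, Aimp2, Eef1e1, Atf4, Asns, Ddit3 and Trib3. Qars, Aars, Yars, Farsb, Sepsecs, Qrsl1, Gatc, Vwf, Lyz2, Pdgfrb and the remaining called genes of short lists were named after their values were seen. Values of a few genes and 1 promoter stretch are not reported here.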

Additional observations from a re-analysis of the deposited data

How the results depend on the processing

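The median log2 fold change of the 43 genes was -0.08 with all libraries, and that of the cytosolic genes was also -0.08. Both medians were -0.12 with library size alone as the scaling, -0.16 with the gene length trend removed, and -0.15 without normal gravity replicate 1 with that trend removed, an alternative chosen after seeing the data. Genes called lower numbered 3 with DESeq2, 2 with the length trend removed and 13, beside 1 higher, under the added alternative. Leaving out each library in turn gave 0 to 9 genes lower and 0 to 2 higher, with medians of -0.10 to -0.09 for all genes, -0.10 to -0.06 for cytosolic genes and -0.21 to -0.11 for mitochondrial genes. All 11 calls came from leaving out normal gravity replicate 1. Cars had a log2 fold change of 0.34 without that replicate and 0.28 with the length trend also removed, and passed in both, against -0.00 (no direction) with all libraries. The cause was not tested. Over all tested genes with all libraries, the DESeq2 test called 714 higher and 516 lower, and edgeR 168 higher and 53 lower. With the length trend removed edgeR called 379 higher and 344 lower, and without normal gravity replicate 1 it called 2329 and 2230. Without any other single library it called at most 20 higher and 5 lower, and with no filter 102 and 23.

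Same-numbered libraries had correlations of deviations of -0.0733, 0.0249 and -0.0898, which show no pairing by replicate number. The deviations are from group means that include normal gravity replicate 1, which stood apart, so a pairing could be hidden. With the replicate block, 0 synthetase genes were called, the medians were -0.07 for all, -0.06 for cytosolic and -0.10 for mitochondrial genes, and 0 of all tested genes passed. With the replicate block and the length trend removed, the medians of all and of cytosolic genes were -0.14, and 13 genes of the whole table were higher and 5 lower.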
